A study of Mus musculus with 12 samples.

Results

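The milk protein genes described here are the 5 casein genes Csn1s1, Csn1s2a, Csn1s2b, Csn2 and Csn3 and 5 genes for other proteins of milk, Wap, Lalba, Glycam1, Btn1a1 and Spp1. They were chosen by symbol, and all 10 were found among the 53735 gene symbols of the deposited count table. RNA sequencing had been run on live mouse mammary epithelial cells, sorted by their surface CD24 and CD49f into a luminal and a basal population. The 12 libraries form 4 groups of 3: MMTVRANK luminal, WT luminal, MMTVRANK basal and WT basal. MMTVRANK mice carry a transgene in which the promoter of the mouse mammary tumour virus drives Rank, the receptor encoded by Tnfrsf11a; this promoter is active in mammary epithelium and some other tissues. WT mice are wild type. The labels name no other allele and no treatment, and they give neither the age, sex and parity of the mice nor a stage of pregnancy or lactation. Nothing in them ties a replicate to an animal of its own, so p-values measure the spread between these libraries.

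Caseins are the bulk of the protein of mouse milk. Those encoded by Csn1s1, Csn2, Csn1s2a and Csn1s2b bind calcium phosphate, and kappa-casein, the product of Csn3, coats and stabilises the micelle they form. All are made by the secretory luminal cells of the alveoli, in which prolactin acts through its receptor Prlr, the kinase Jak2 and the factor Stat5 on casein promoters. Basal cells contract and eject the milk rather than make it. Rank receives the signal of Rankl, which luminal cells make in response to progesterone.

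The promoters of 5 members are printed. Of these, Csn1s1, Csn2 and Csn1s2a did not pass between genotypes in luminal cells and Lalba and Spp1 fell, as described further on. The promoters come from RefSeq on GRCm38.p6, the build of the count table. There 7 of the 10 members had a promoter, a window of 300 bases with 250 before and 50 after the start of transcription. Csn3, Btn1a1 and Csn1s2b had none. As Csn3 and Btn1a1 also fell, the promoters shown cannot tell whether the palindrome goes with the genotype differences. Capitals mark the 9-base palindrome TTCNNNGAA, the core to which Stat5 can bind. Both strands were searched, and the palindrome reads alike on each. The first 3 sequences hold 1 palindrome each, and the other two hold none. The Csn1s1 promoter (chr5:87665958-87666207, plus strand) has it as TTCTTAGAA, whose first base lies 100 bases before the start. The Csn2 promoter (chr5:87699426-87699675, minus strand) has TTCTTGGAA with its first base 93 bases before the RefSeq start, and the deposited gene model starts 205 bases further upstream than that start. The Csn1s2a window (chr5:87774200-87774499, plus strand) has TTCTTAGAA with its first base 20 bases after the RefSeq start, and the deposited gene model starts 117 bases after that start. Lalba (chr15:98482684-98482933, minus strand) and Spp1 (chr5:104434861-104435110, plus strand) are shown over the 250 bases before their RefSeq starts.
Csn1s1: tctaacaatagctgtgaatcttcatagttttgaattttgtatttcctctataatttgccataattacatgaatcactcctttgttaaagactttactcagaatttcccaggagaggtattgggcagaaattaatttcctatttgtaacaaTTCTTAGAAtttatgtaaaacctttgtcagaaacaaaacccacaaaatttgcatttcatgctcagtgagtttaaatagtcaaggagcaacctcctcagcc
Csn2: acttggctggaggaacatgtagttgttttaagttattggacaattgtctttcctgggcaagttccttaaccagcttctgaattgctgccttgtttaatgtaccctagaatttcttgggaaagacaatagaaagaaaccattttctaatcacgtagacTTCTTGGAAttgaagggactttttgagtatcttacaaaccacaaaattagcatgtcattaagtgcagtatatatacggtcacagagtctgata
Csn1s2a: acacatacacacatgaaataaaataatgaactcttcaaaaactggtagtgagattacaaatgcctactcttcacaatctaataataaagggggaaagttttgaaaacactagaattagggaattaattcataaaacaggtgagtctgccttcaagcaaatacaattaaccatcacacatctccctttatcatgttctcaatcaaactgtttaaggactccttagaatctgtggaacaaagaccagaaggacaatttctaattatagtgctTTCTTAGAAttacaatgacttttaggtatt
Lalba: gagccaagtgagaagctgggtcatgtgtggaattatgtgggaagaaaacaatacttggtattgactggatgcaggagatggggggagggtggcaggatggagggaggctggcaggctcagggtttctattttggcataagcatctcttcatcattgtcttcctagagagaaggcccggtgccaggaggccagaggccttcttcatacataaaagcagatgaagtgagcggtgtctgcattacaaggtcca
Spp1: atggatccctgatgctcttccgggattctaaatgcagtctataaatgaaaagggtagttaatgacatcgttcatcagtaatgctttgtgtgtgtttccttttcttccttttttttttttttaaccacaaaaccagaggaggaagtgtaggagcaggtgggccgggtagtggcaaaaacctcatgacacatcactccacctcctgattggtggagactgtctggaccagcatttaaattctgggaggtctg
Among the other members with a window, the Glycam1 promoter held the palindrome as TTCCCAGAA, its first base 145 bases before the start, and the Wap promoter did not hold it. The palindrome occurred in 2726 of all 32851 RefSeq promoter windows of this length, or 8.30%. A core of C/EBP factors, TTGCNNAA on either strand, was met in 1 member, as TTGCAGAA in a window of Spp1 that begins at a later start, against 10.8% of all windows. A match is a match of letters only and was not tested for binding, and its relation to the genotype differences was not tested.

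Total counts lay between 12459547 and 15069578 per library, and milk protein genes took 0.0150% to 0.199% of the luminal and 0.00262% to 0.0523% of the basal counts. The sort labels fitted their markers. Pan-luminal markers, 14 genes, summed to between 10314 and 23599 CPM (counts divided by the TMM-scaled total of their library and brought to one common total) in luminal libraries and between 1152 and 1880 CPM in basal ones. The 14 basal and myoepithelial markers summed to 295 to 795 CPM in luminal and 25078 to 33079 CPM in basal libraries. In both WT libraries numbered 2, the cell subtype field contradicts the title, and the titles, which fit these markers, were used. Tnfrsf11a went against a genotype label. It stood at 319, 156 and 238 CPM in MMTVRANK luminal libraries and 6.36, 90.8 and 9.91 CPM in WT luminal libraries, and at 415, 129 and 218 CPM in MMTVRANK basal and 73.7, 158 and 65.3 CPM in WT basal libraries, each in the order of replicates 1, 2 and 3. Both libraries labelled WT replicate 2 were thus high for the gene of the transgene, and genotype counts and calls that turn without them are given beside the result. Both MMTVRANK replicate 3 libraries held macrophage transcripts, with Lyz2 at 134 CPM in the luminal and 116 CPM in the basal one and at or below 6.57 CPM in the other 10 libraries. The luminal one differed from MMTVRANK luminal replicates 1 and 2 in other markers too. Its B and T cell markers summed to 76.0 CPM, against 5.11 and 4.73 CPM in replicates 1 and 2. In the same order Krt14 stood at 69.2 against 10.2 and 23.8 CPM, and Col3a1 at 69.0 against 9.26 and 5.56 CPM. Pgr was lower, at 63.0 against 357 and 288 CPM. Reads were counted without a strand option. Csn3 lies within the span of a clone-named gene on the opposite strand with 0 shared exonic bases, and Spp1 shares 309 exonic bases of its 1648 with a clone-named gene on its own strand, so reads from that stretch cannot be assigned to Spp1 with certainty.

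Luminal cells of MMTVRANK and WT mice were compared first, to ask how milk protein transcripts stand in the cells that make milk when Rank is in excess. Csn3, Lalba, Btn1a1 and Spp1 fell in MMTVRANK luminal cells, whereas Csn1s1, Csn2, Csn1s2a and Glycam1 did not pass the test. The 4 that fell did so by 10.3-fold to 80.2-fold. Of the 10 genes, 8 had enough counts to be tested and 4 of those fell (edgeR quasi-likelihood test, adjusted p under 0.05). Among all 18236 genes tested, 0.159% fell and 0.252% changed in either direction. All 4 lay lower in each MMTVRANK than in any WT luminal library, as did 6.82% of all genes.

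**Figure D1:**
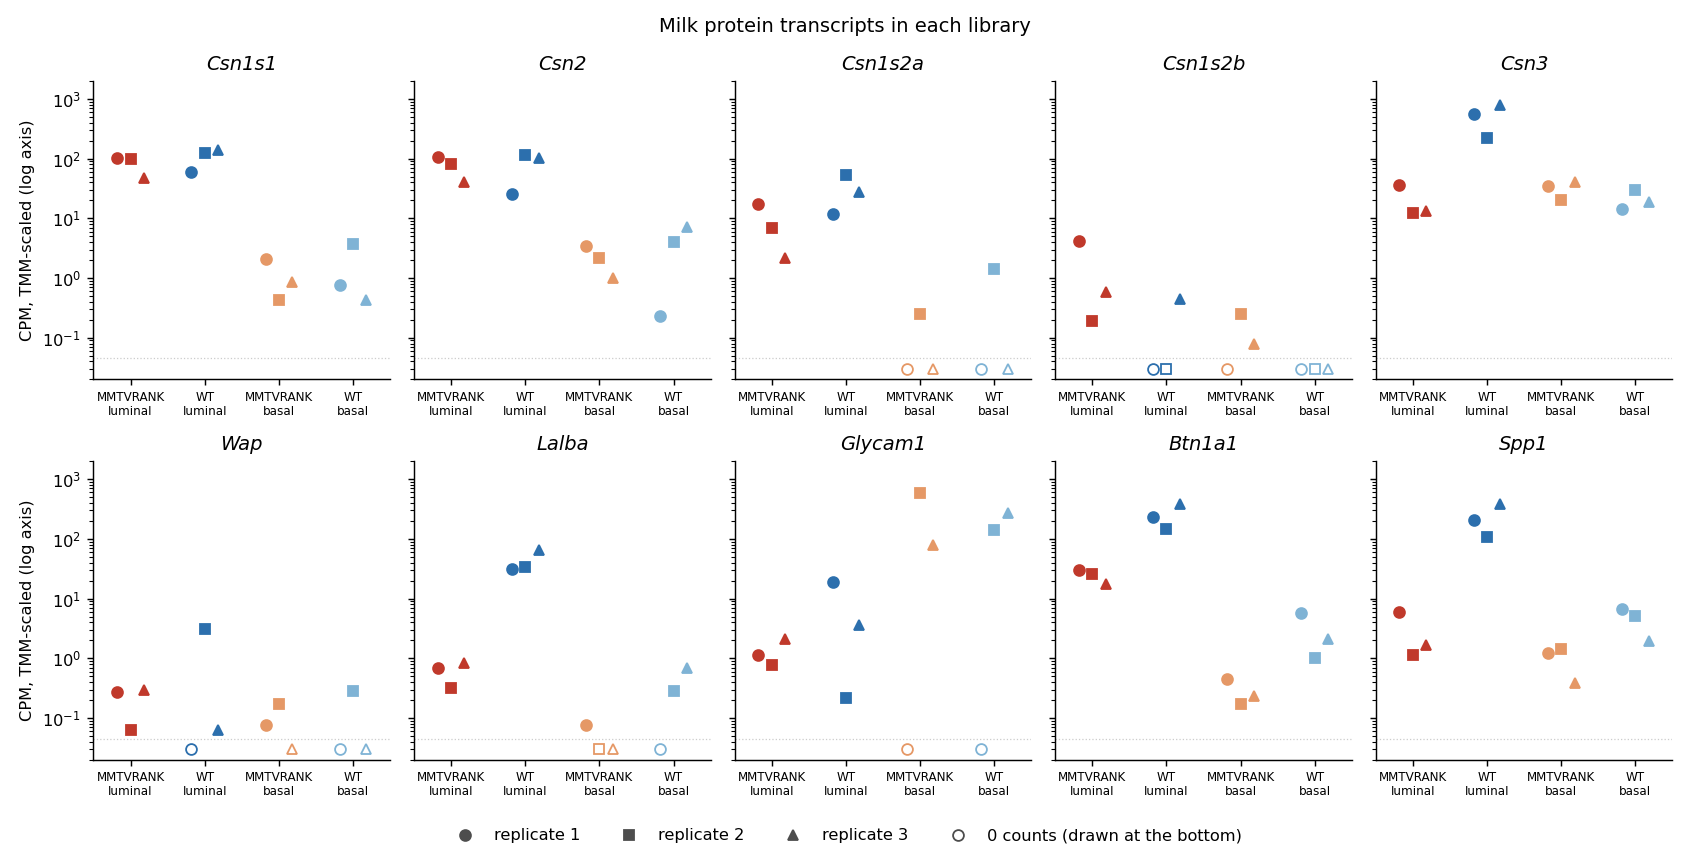
Each panel plots 1 milk protein gene in CPM on a log axis, with 1 symbol per library, the replicate number given by its shape and libraries with 0 counts drawn open at the bottom. Csn3, Lalba, Btn1a1 and Spp1 lie lower in every MMTVRANK luminal than in every WT luminal library, Csn1s1 and Csn2 overlap between genotypes, and Glycam1 is highest in basal libraries numbered 2 and 3.

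Kappa-casein transcripts, from Csn3 (chr5:87925579-87932665, plus strand), stood at 35.6, 12.3 and 13.3 CPM in MMTVRANK luminal replicates 1, 2 and 3, against 560.4, 219 and 799 CPM in WT luminal replicates 1, 2 and 3. The groups did not overlap, and the library labelled WT luminal replicate 2 was the lowest of its group. The means were 20.4 ± 13.2 CPM in MMTVRANK and 526 ± 292 CPM in WT luminal cells (SD, n = 3 each), and the log2 fold change was −4.69 (SE 0.60, adjusted p = 0.0286), which is 25.8-fold lower in MMTVRANK.

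Lalba (chr15:98480400-98482721, minus strand) encodes alpha-lactalbumin, the subunit that turns a galactosyltransferase into lactose synthase. Its level was 0.681, 0.320 and 0.820 CPM in MMTVRANK luminal libraries, where it rested on 29 counts in all, against 31.5, 34.5 and 64.4 CPM and 1921 counts in WT luminal libraries. No MMTVRANK library came near the lowest WT library. The log2 fold change was −6.14 (SE 0.71, adjusted p = 0.00921), or 70.4-fold lower in MMTVRANK.

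Btn1a1 (chr13:23456992-23465901, minus strand) encodes butyrophilin, a membrane protein of the milk fat globule. It stood at 30.4, 25.5 and 17.5 CPM in MMTVRANK and 229, 146 and 382 CPM in WT luminal libraries. The groups did not overlap, and the log2 fold change was −3.37 (SE 0.52, adjusted p = 0.0387), or 10.3-fold lower in MMTVRANK.

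Spp1 (chr5:104435118-104441050, plus strand) encodes osteopontin, a phosphoprotein that is secreted into milk and is also made by macrophages and bone cells. It stood at 5.99, 1.15 and 1.70 CPM in MMTVRANK and 211, 109 and 383 CPM in WT luminal libraries. The log2 fold change was −6.32 (SE 0.77, adjusted p = 0.0263), or 80.2-fold lower in MMTVRANK, again with no overlap. Macrophage markers were unevenly spread over the same libraries. Adgre1 was at 0.136, 0 and 9.08 CPM in MMTVRANK luminal and at 0, 0 and 0.127 CPM in WT luminal libraries. Csf1r was at 0.272, 0.831 and 25.2 CPM in MMTVRANK luminal and at 0.599, 9.93 and 12.1 CPM in WT luminal libraries. Thus MMTVRANK replicate 3 was highest for both, and WT replicates 2 and 3 held Csf1r with little or no Adgre1. Over the whole list of 16 macrophage and osteoclast markers, which includes Cd14, a gene also listed among the luminal progenitor markers, the summed level ranged between 185 and 739 CPM in MMTVRANK and between 129.8 and 319 CPM in WT luminal libraries. Cd14 alone stood at 164, 178 and 376 CPM in MMTVRANK and at 109, 241 and 271 CPM in WT luminal libraries. It thus gave most of the sum in every luminal library, though only just in MMTVRANK replicate 3. The sum is therefore no measure of macrophage content. None of the 14 markers tested changed, and their part in the Spp1 values was not tested.

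The calcium-sensitive caseins differed in another way. Csn1s1 (alpha-s1-casein; chr5:87666208-87682578, plus strand) stood at 105, 98.5 and 47.9 CPM in MMTVRANK and 59.7, 125 and 141 CPM in WT luminal libraries, and the log2 fold change was −0.38 (SE 0.60, adjusted p = 0.914). Csn2 (beta-casein; chr5:87692624-87699630, minus strand) stood at 105, 82.4 and 40.5 CPM in MMTVRANK and 26.0, 115 and 104 CPM in WT luminal libraries, and the log2 fold change was −0.11 (SE 0.76, adjusted p = 0.997). For both genes the values of the genotypes interleaved, and the direction of Csn2 changed with the processing. Csn1s2a (an alpha-s2-casein; chr5:87774567-87788797, plus strand) stood at 17.5, 6.84 and 2.17 CPM in MMTVRANK and 11.9, 54.1 and 27.8 CPM in WT luminal libraries, overlapping at 1 library of each, and the log2 fold change was −1.83 (SE 1.07, adjusted p = 0.581). Missing the threshold does not show that these 3 genes were at equal levels in both genotypes. With no filter on low counts Csn1s2a passed (−1.83, adjusted p = 0.00121), at nearly the same fold change and with 1353 genes called in all.

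Csn1s2b and Wap were below the minimum count and were not tested. Csn1s2b (the second alpha-s2-casein; chr5:87808082-87824426, plus strand) had 62, 3 and 10 counts in MMTVRANK and 0, 0 and 7 counts in WT luminal libraries, so that 1 library held most of them. Wap (whey acidic protein; chr11:6635482-6638637, minus strand), in lactation one of the most abundant transcripts of the mouse gland, had 4, 1 and 5 counts in MMTVRANK and 0, 43 and 1 counts in WT luminal libraries, with 43 in the library labelled WT luminal replicate 2. A count of 0 allows up to 3 counts, which is 0.225 CPM in WT luminal replicate 1, and this limit covers counting error only. Glycam1 stood at 1.16, 0.767 and 2.11 CPM in MMTVRANK and 19.2, 0.213 and 3.62 CPM in WT luminal libraries, which overlapped, and the log2 fold change was −2.48 (SE 2.27, adjusted p = 0.801). With no filter on low counts Glycam1 passed (−2.51, adjusted p = 1.54e-17), so that 6 of the 8 genes did, though its fold change hardly moved. That setting called 1353 genes in all, against 46 in the main fit, and the reason for its smaller p values was not tested.

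**Figure D2:**
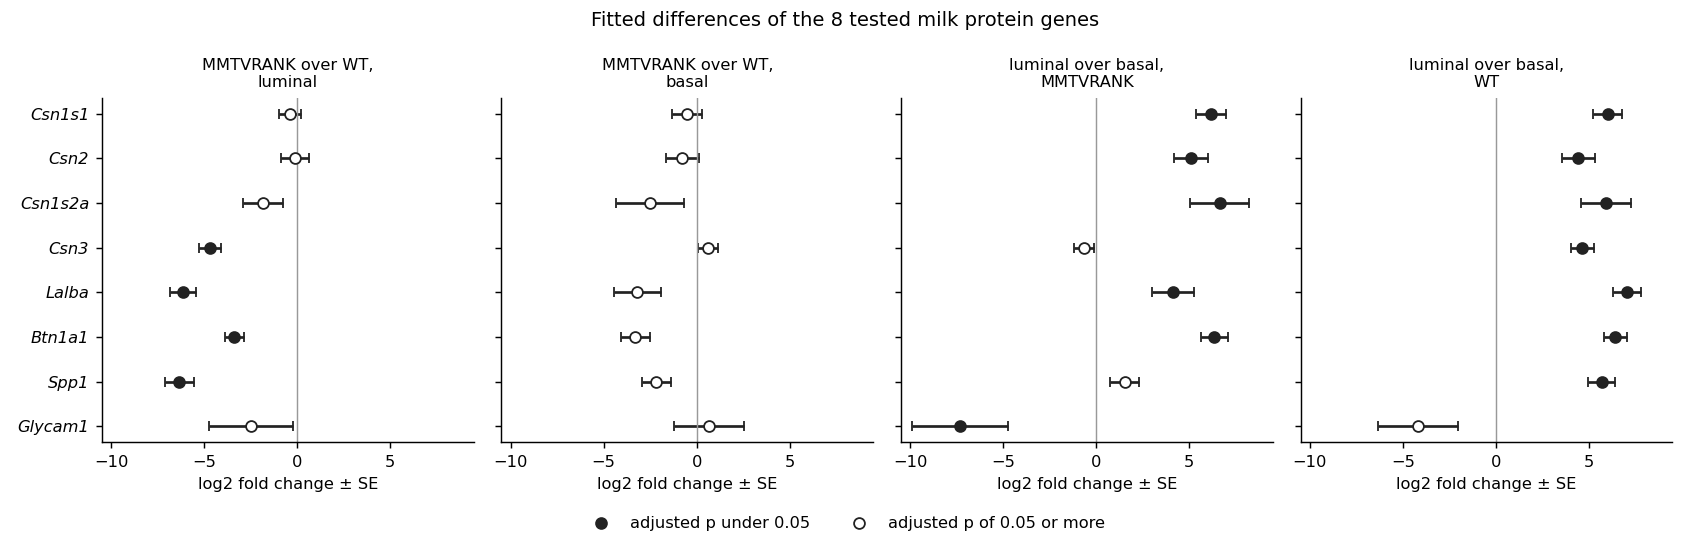
Points give the fitted log2 fold change of the 8 tested genes and bars its SE, for MMTVRANK over WT in luminal and in basal cells and for luminal over basal cells in MMTVRANK and in WT. Filled points pass at an adjusted p under 0.05: Csn3, Lalba, Btn1a1 and Spp1 in the first panel, none in the second, 6 genes in the third and 7 in the fourth.

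All 4 calls held with DESeq2 and limma-voom, with other scalings and without both libraries labelled WT replicate 2. They depended on single libraries at the threshold. Lalba alone passed without MMTVRANK luminal replicate 3, without WT luminal replicate 1 and without MMTVRANK basal replicate 1 or 2, a count of 1 in each case. The count was 2 without MMTVRANK basal replicate 3, and 3, with Btn1a1 missing, without MMTVRANK luminal replicate 1 or 2 or WT luminal replicate 3. Without both MMTVRANK replicate 3 libraries the count was 1. These libraries held the macrophage transcripts, and the luminal one also differed in the other markers named above. The count was also 1, again Lalba, when the luminal groups alone were fitted. Over the libraries left out in turn the log2 fold change stayed between −5.40 and −4.32 for Csn3, −6.46 and −5.79 for Lalba, −3.64 and −2.99 for Btn1a1 and −7.39 and −5.83 for Spp1. In sorted bulk RNA, fewer cells that express a gene and less of its RNA per cell cannot be told apart.

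Summed over the 10 genes, milk protein transcripts stood at 305, 228 and 127 CPM in MMTVRANK luminal and 1149, 806 and 1906 CPM in WT luminal libraries. The means were 220.1 ± 89.5 CPM in MMTVRANK and 1287 ± 563 CPM in WT (SD, n = 3 each), a ratio of 0.171, which is given with no test. Without Csn3, the gene with the highest sum, the ratio was 0.262, and it was 0.144 when the library labelled WT luminal replicate 2 was left out. Within replicate numbers 1, 2 and 3 the ratio of MMTVRANK to WT was 0.266, 0.283 and 0.0665.

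With Csn3 lower and Csn1s1 and Csn2 overlapping, the make-up of the casein reads differed between genotypes. A share within 1 library does not depend on how libraries are scaled. Csn3 gave 13.3%, 6.16% and 12.7% of the casein reads of MMTVRANK luminal replicates 1, 2 and 3, against 85.2%, 42.6% and 74.5% in WT luminal replicates 1, 2 and 3. These shares rest on 1783 to 3921 casein reads per MMTVRANK and 7231 to 16889 per WT luminal library. Per read of Csn1s1 there were 0.340, 0.125 and 0.278 reads of Csn3 in MMTVRANK and 9.38, 1.75 and 5.66 in WT luminal libraries. The pair Csn2 and Csn1s1 kept closer together, with 1.00, 0.837 and 0.845 reads of Csn2 per read of Csn1s1 in MMTVRANK and 0.435, 0.919 and 0.737 in WT luminal libraries. Reads of Btn1a1 per read of Csn1s1 were 0.290, 0.259 and 0.364 in MMTVRANK and 3.84, 1.17 and 2.70 in WT, and reads of Lalba per read of Csn2 were 0.00649, 0.00388 and 0.0203 in MMTVRANK and 1.21, 0.2998 and 0.619 in WT. The shares and ratios were chosen after the levels were seen and carry no test, and in each of them except Csn2 to Csn1s1 the genotypes were apart. The library labelled WT luminal replicate 2 was the nearest of its group to MMTVRANK in every ratio that set the genotypes apart.

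**Figure D3:**
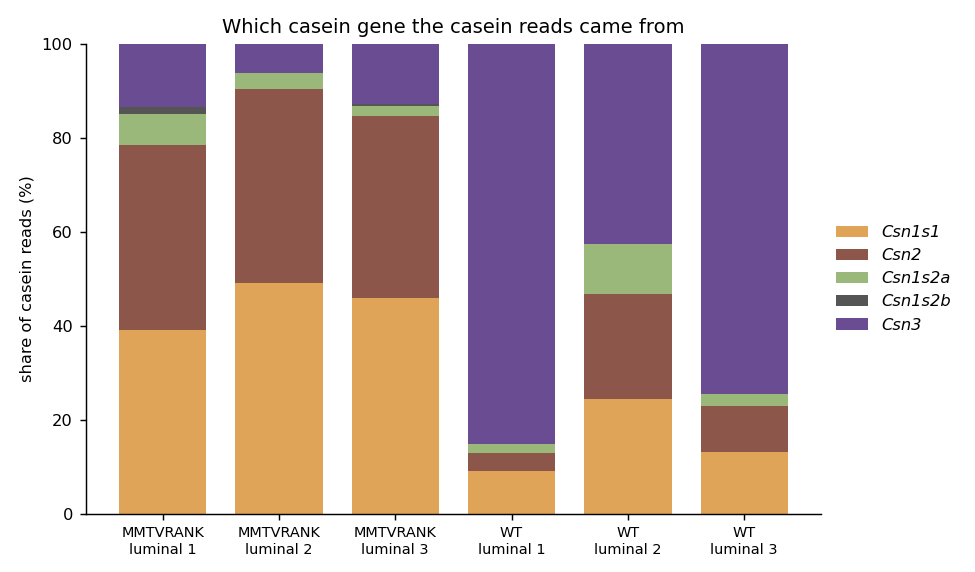
Each bar is 1 luminal library, MMTVRANK on the left and WT on the right, and its segments give the percentage of its casein reads that each of the 5 casein genes took. Csn3 fills 6.16% to 13.3% of the MMTVRANK bars and 42.6% to 85.2% of the WT bars, and Csn1s1 and Csn2 fill most of the MMTVRANK bars.

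The 5 casein genes are neighbours on chromosome 5, within 266 kb between the start of Csn1s1 and the end of Csn3. Csn1s1 and Csn2 lie 10.05 kb apart and point towards each other, and Csn3 lies 226 kb beyond Csn2 at the far end. Wholly within the region lie 13 gene symbols, and none of the 8 that are no casein had more than 8 counts in any library. The clone-named gene on the opposite strand that overlaps Csn3 reaches beyond the region and is not among them. In MMTVRANK luminal libraries the summed counts along the locus were 3895 for Csn1s1, 3522 for Csn2, 401 for Csn1s2a, 75 for Csn1s2b and 943 for Csn3. In WT luminal libraries they were 4785, 3606, 1360, 7 and 23154 for the same genes in that order. Csn3 thus held the most casein counts of WT and the third most of MMTVRANK luminal cells.

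**Figure D4:**
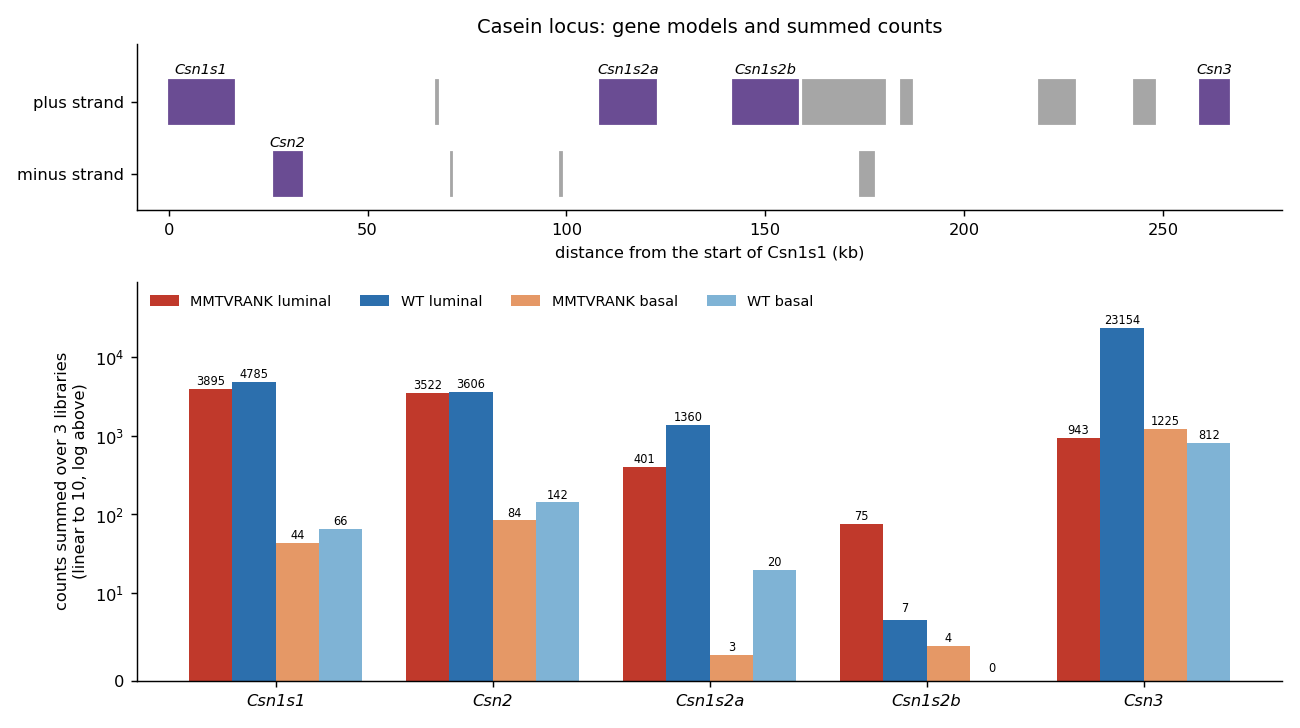
The upper panel maps the gene models that lie wholly within the casein locus by strand and distance in kb from the start of Csn1s1. Caseins are in purple and other genes in grey. The lower panel gives the counts of each casein gene summed over the 3 libraries of a group, on an axis that is linear up to 10 and logarithmic above, and Csn3 has 943 counts in MMTVRANK luminal against 23154 in WT luminal libraries.

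Per kilobase of the deposited exon length, which adds the exons of all transcripts of a gene, the order of the genes differed between genotypes. In MMTVRANK luminal cells Csn1s1 (13.4 CPM per kb) and Csn2 (11.0) were highest, then Btn1a1 (5.93), Csn3 (4.92), Csn1s2a (2.52), Spp1 (1.79), Lalba (0.787), Glycam1 (0.630), Csn1s2b (0.391) and Wap (0.208), and every neighbouring pair of this order overlapped between libraries. In WT luminal cells Spp1 (142 CPM per kb) and Csn3 (127) were highest, then Btn1a1 (61.2) and Lalba (56.4), and after a gap with no overlap Csn1s1 (17.4), Csn2 (11.8), Csn1s2a (8.93), Glycam1 (3.59), Wap (1.03) and Csn1s2b (0.0348). The gap between Lalba and Csn1s1 was the one place where the ranges of neighbours in the WT order did not overlap. The 4 genes above that gap were the 4 that fell in MMTVRANK, and in MMTVRANK their means lay below those of Csn1s1 and Csn2. The gap depends on the deposited exon lengths, 771 bases for Lalba against 6247 for Csn1s1 and 6926 for Csn2. In CPM not divided by length, Lalba averaged 43.5 in WT luminal cells, below Csn1s1 at 108.7 and Csn2 at 81.7. The same WT values also enter the fold changes, so this match is no separate result.

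The genes through which lactogenic hormones act did not pass the test. Of 25 genes of lactogenic signalling and transcription, all tested, none changed, with a median log2 fold change of −0.24 against 0.03 over all genes. Prlr, the prolactin receptor, stood at 2338, 2013 and 791 CPM in MMTVRANK and 4710.1, 2578 and 3518 CPM in WT luminal libraries, without overlap, and its log2 fold change of −1.07 (SE 0.52) had an adjusted p of 0.464. Jak2, the kinase bound to it, averaged 154 ± 7.61 CPM in MMTVRANK and 204 ± 37.5 CPM in WT (log2 fold change −0.41, adjusted p = 0.339). Stat5a averaged 143 ± 27.6 CPM in MMTVRANK and 214 ± 51.2 CPM in WT, with an adjusted p of 0.456, and Stat5b had a log2 fold change of −0.25. Elf5, a factor that specifies alveolar cells, stood at 59.3, 44.2 and 67.95 CPM in MMTVRANK and 60.6, 66.8 and 98.2 CPM in WT luminal libraries, which overlapped (log2 fold change −0.40, SE 0.63, adjusted p = 0.915). Gata3, a factor of luminal fate, had a log2 fold change of −0.26, and Nr3c1, the glucocorticoid receptor, one of 0.53 with an adjusted p of 0.303. Socs1 and Socs3, feedback inhibitors of this pathway, had log2 fold changes of 1.35 and −0.81, with adjusted p values of 0.368 and 0.387.

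Other proteins of milk split. Of 26 such genes 22 were tested, 1 fell and 1 rose. Lcn2, the antibacterial lipocalin 2, fell to 109, 133 and 160 CPM in MMTVRANK luminal libraries, against 363, 424 and 841 CPM in WT luminal libraries (log2 fold change −2.02, SE 0.36, adjusted p = 0.0457). Pthlh, parathyroid hormone-related protein, which moves calcium out of bone during lactation, stood at 1.97, 2.05 and 5.80 CPM in MMTVRANK and 0.299, 0.284 and 0.381 CPM in WT luminal libraries and rose, with a log2 change of 3.31 (SE 0.59, adjusted p = 0.0457). The WT luminal values are close to what a count of 0 allows, 0.225 CPM in WT luminal replicate 1. Pthlh averaged more in basal cells, 8.20 CPM in MMTVRANK and 9.91 CPM in WT. Ltf, the iron-binding protein lactoferrin, stood at 9.60, 10.5 and 7.62 CPM in MMTVRANK and 164, 101 and 110.1 CPM in WT luminal libraries, without overlap. Its log2 fold change was −3.76 (SE 0.91), and its adjusted p of 0.113 missed the threshold. Ang, angiogenin, did not pass and was at or below 0.351 CPM in every luminal library. Without both libraries labelled WT replicate 2, Lcn2 and Ltf fell and Pthlh did not pass (adjusted p = 0.0885), and without both MMTVRANK replicate 3 libraries none of the list passed, with an adjusted p of 0.163 for Lcn2 and 0.230 for Pthlh.

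The genes of milk fat and lactose did not pass either. None of 24 tested genes of the milk fat globule and milk lipid changed (median log2 fold change 0.09), and none of 21 tested genes of lactose synthesis and milk protein processing changed (median −0.24). Log2 fold changes were negative for 12 of the 24 and for 17 of the 21. Xdh, the xanthine oxidoreductase that binds butyrophilin on the fat globule, averaged 29.2 ± 1.75 CPM in MMTVRANK and 64.1 ± 27.8 CPM in WT luminal cells (log2 fold change −1.13, adjusted p = 0.101). Aldoc, an aldolase, averaged 50.8 ± 5.31 CPM in MMTVRANK and 98.5 ± 23.8 CPM in WT (log2 fold change −0.95, adjusted p = 0.0782). B4galt1, the galactosyltransferase with which alpha-lactalbumin makes lactose, averaged 126 ± 14.7 CPM in MMTVRANK and 172 ± 26.9 CPM in WT, with an adjusted p of 0.339. Slc2a1, a glucose transporter, averaged 84.4 ± 12.9 CPM in MMTVRANK and 142 ± 10.2 CPM in WT, with an adjusted p of 0.146. Xdh, Aldoc, B4galt1 and Slc2a1 each lay lower in every MMTVRANK than in any WT luminal library, as did 6.82% of all genes. Slc27a3, a fatty acid transport protein, Folr1, a folate receptor, and Hk1, a hexokinase, overlapped between the genotypes, with adjusted p values of 0.278, 0.402 and 0.406. Thrsp, a regulator of fatty acid synthesis, overlapped too, at 18.9, 5.11 and 26.1 CPM in MMTVRANK and 0.449, 5.32 and 0.381 CPM in WT luminal libraries (log2 fold change 3.02, adjusted p = 0.206), and it rose without both libraries labelled WT replicate 2.

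Markers of the cells that a luminal sort can hold were read beside the milk protein genes, and most of them did not pass. Of 11 luminal progenitor markers, 3 fell in MMTVRANK luminal cells: Tspan8 (log2 fold change −4.08, adjusted p = 0.0421), Hey1 (−4.19, adjusted p = 0.0430) and Lcn2, which is also in the list of milk proteins. Among all genes tested 0.159% fell. The 11 markers summed to 733 to 2136 CPM in MMTVRANK and 1334 to 2718 CPM in WT luminal libraries. In basal libraries the sum was 1964 to 2695 CPM in MMTVRANK and 1569 to 3067 CPM in WT. It thus does not mark luminal cells. Lcn2 averaged 134 CPM in MMTVRANK and 542 CPM in WT luminal cells, and 1521 CPM in MMTVRANK and 1716 CPM in WT basal cells. Kit, the receptor by which luminal progenitors are often sorted, stood at 98.5, 121 and 221 CPM in MMTVRANK and 82.4, 118 and 221 CPM in WT luminal libraries. None of 12 hormone-sensing luminal markers changed, with a summed level of 2019 to 5680.1 CPM in MMTVRANK and 6035 to 11209 CPM in WT luminal libraries, and none of the 14 pan-luminal markers changed, with 10314 to 14739 CPM in MMTVRANK and 15899 to 23599 CPM in WT. Of 12 proliferation markers 1 rose, Tyms, the thymidylate synthase (log2 fold change 1.97, adjusted p = 0.0457), all 12 had positive log2 fold changes, and the summed level was 809 to 1845 CPM in MMTVRANK and 124 to 380.4 CPM in WT luminal libraries. Without both libraries labelled WT replicate 2, Tspan8, Hey1, Lcn2 and Tyms still passed, and Ltf of the progenitor list and Tph1 of the hormone-sensing list fell as well. Without both MMTVRANK replicate 3 libraries no marker of these 4 lists passed. None of the 14 basal and myoepithelial markers passed, and 12 had positive log2 fold changes, with a median of 0.87. Their summed level was 399 to 795 CPM in MMTVRANK and 295 to 582 CPM in WT luminal libraries, which overlapped. Of 7 tested fibroblast and 7 tested B and T cell markers none passed, and 5 of each had positive log2 fold changes. The part of any of these lists in the lower milk protein transcripts was not tested.

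In basal cells milk protein transcripts were low in both genotypes, apart from Csn3 and Glycam1, and none of the 8 tested genes changed between MMTVRANK and WT by edgeR. Among all genes 0.00548% changed. At an unadjusted p under 0.05 there were 3 of the 8, Btn1a1, Spp1 and Lalba, against 5.41% of all genes. DESeq2 called Btn1a1 alone, and limma-voom called none. Btn1a1 stood at 0.454, 0.169 and 0.235 CPM in MMTVRANK and 5.64, 1.01 and 2.14 CPM in WT basal libraries (log2 fold change −3.30, SE 0.77, adjusted p = 0.621). Spp1 stood at 1.21, 1.43 and 0.392 CPM in MMTVRANK and 6.57, 5.04 and 1.97 CPM in WT basal libraries (log2 fold change −2.17, SE 0.78, adjusted p = 0.830). Both were without overlap between the genotypes and lower in MMTVRANK, which 4.52% of all genes were. Lalba rested on 1 count in MMTVRANK and 12 counts in WT basal libraries in all.

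Csn3 was present in every basal library, at 34.9, 20.2 and 41.0 CPM in MMTVRANK and 14.3, 29.4 and 18.7 CPM in WT (log2 fold change 0.62, SE 0.53, adjusted p = 1). These ranges overlapped. Csn1s1 stayed at or below 3.67 CPM and Csn2 at or below 7.10 CPM in every basal library. Their values in basal libraries gave log2 fold changes of −0.53 (SE 0.80) and −0.77 (SE 0.89), and Csn1s2a, with 3 counts in MMTVRANK and 20 in WT basal libraries, one of −2.51 (SE 1.81). None of these 3 passed, and Csn1s1 and Csn1s2a had the other sign, 0.92 and 3.31, without the library labelled WT basal replicate 2.

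Luminal set against basal cells showed which milk protein genes follow the sort. In MMTVRANK cells 5 of the 8 tested genes were higher in luminal cells, against 16.1% of all genes, and 1 was lower, against 17% of all genes. In WT cells 7 were higher in luminal cells, against 18% of all genes, and none was lower, against 20% of all genes. Luminal over basal, Csn1s1 had log2 fold changes of 6.18 (SE 0.79) in MMTVRANK and 6.02 (SE 0.77) in WT, Csn2 one of 5.10 (SE 0.94) in MMTVRANK and 4.44 (SE 0.90) in WT, and Btn1a1 one of 6.35 (SE 0.72) in MMTVRANK and 6.43 (SE 0.61) in WT, all with an adjusted p of 0.00277 or less. Csn1s2a had 6.63 (SE 1.60, adjusted p = 0.00818) in MMTVRANK and 5.95 (SE 1.34, adjusted p = 0.00518) in WT, and Lalba 4.13 (SE 1.14, adjusted p = 0.0142) in MMTVRANK and 7.06 (SE 0.77, adjusted p = 2.51e-05) in WT. In MMTVRANK limma-voom kept 3 of the 6 calls, those of Csn1s1, Csn2 and Btn1a1, and Lalba was also lost without MMTVRANK basal replicate 2 (adjusted p = 0.0564) or 3 (adjusted p = 0.0552).

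Csn3 and Spp1 followed the sort in WT cells and did not pass in MMTVRANK cells. Luminal over basal, the log2 fold change of Csn3 was −0.65 (SE 0.53, adjusted p = 0.383) in MMTVRANK and 4.66 (SE 0.60, adjusted p = 0.000148) in WT. Spp1 had 1.53 (SE 0.79, adjusted p = 0.169) in MMTVRANK and 5.69 (SE 0.75, adjusted p = 0.000165) in WT. Csn3 averaged 20.4 ± 13.2 CPM in luminal and 32.0 ± 10.7 CPM in basal cells of MMTVRANK, and 526 ± 292 CPM in luminal and 20.8 ± 7.75 CPM in basal cells of WT (SD, n = 3 each). Its mean in basal cells was thus 157% of that in luminal cells in MMTVRANK and 3.96% in WT. The same share was read for 5 luminal epithelial genes picked from the 14 pan-luminal markers, Krt8, Krt18, Krt19, Cldn3 and Cldn7. It ran between 0.715% and 7.23% in MMTVRANK and between 0.908% and 5.80% in WT. The share of Csn3 lay above this range in MMTVRANK and within it in WT. Other markers of that list stood closer between the sorts, so the range does not hold for the whole list. In MMTVRANK, Cd24a stood at 594 to 826 CPM in luminal and 243 to 493 CPM in basal libraries. Spint2 stood at 279 to 319 CPM in luminal and 133 to 141 CPM in basal libraries of MMTVRANK. For Csn1s1 the share was 1.35% in MMTVRANK and 1.49% in WT, and for Csn2 2.90% in MMTVRANK and 4.64% in WT. Luminal Csn3 in MMTVRANK, at 12.3 to 35.6 CPM, thus lay in the range of the basal libraries of either genotype, 14.3 to 41.0 CPM, or just below it.

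The difference between the luminal and the basal genotype effect was itself tested, and none of the 8 genes passed by edgeR, against 0.00548% of all genes. An unadjusted p under 0.05 was reached by 2 of them, Csn3 and Spp1, against 7.73% of all genes, DESeq2 called the same 2 and limma-voom called none. For Csn3 the luminal effect minus the basal effect was −5.31 on the log2 scale (adjusted p = 0.127), and it passed without MMTVRANK luminal replicate 1 (−5.99, adjusted p = 0.0397). For Spp1 it was −4.16 (adjusted p = 0.414), for Lalba −2.93 (adjusted p = 0.862) and for Btn1a1 −0.071 (adjusted p = 1). Btn1a1 had log2 fold changes of −3.37 in luminal and −3.30 in basal cells. Its basal level was 1.17% of the luminal one in MMTVRANK and 1.16% in WT. These shares lay in the range of the 5 luminal epithelial genes picked above, which does not hold for the whole list of 14 pan-luminal markers. That basal level rested on 11 counts in MMTVRANK and 112 in WT. Which cells of the basal sort gave these counts was not tested. A loss confined to luminal cells was not shown for any of the 4.

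Glycam1 (chr15:103562759-103565081, minus strand) went against the sort. It encodes a mucin-like protein of milk that is also made by the high endothelial venules of lymph nodes, where it carries the sugars that L-selectin binds. No luminal library held more than 19.2 CPM, whereas it stood at 0, 581 and 79.7 CPM in MMTVRANK basal and 0, 143 and 275 CPM in WT basal libraries. The 2 libraries at 0 were those numbered 1, and a count of 0 there allows up to 0.227 CPM in MMTVRANK and 0.232 CPM in WT. The genotypes overlapped (log2 fold change 0.66, SE 1.88, adjusted p = 1). Luminal over basal, the log2 fold change was −7.33 (SE 2.56, adjusted p = 0.0479) in MMTVRANK and −4.19 (SE 2.16, adjusted p = 0.154) in WT. The call in MMTVRANK was lost by limma-voom (−3.03, adjusted p = 0.733), with the replicate number as a block (−6.66, adjusted p = 0.175) and without any 1 of 10 of the 12 libraries, over all of which the adjusted p ran between 0.0273 and 0.186. It was kept without MMTVRANK basal replicate 1, without WT basal replicate 1 and without both. Without both, WT also passed (−4.76, adjusted p = 0.0208), and with no filter on low counts both genotypes did.

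Transcripts of vessels were read in the same libraries. Chst4, a sulfotransferase of high endothelial venules, stood at 0, 1.35 and 0.705 CPM in MMTVRANK and 0, 0.864 and 1.97 CPM in WT basal libraries, at 0 where Glycam1 was at 0, and on at most 23 counts. Fut7, a fucosyltransferase of the same vessels and of leukocytes, stood at 0.303, 2.87 and 1.72 CPM in MMTVRANK and 0.387, 2.52 and 1.20 CPM in WT basal libraries, lowest in the same 2 libraries, and on at most 35 counts. Among the other 4 libraries Fut7 did not follow Glycam1, being lowest in WT replicate 3, where Glycam1 was at 275 CPM. Pecam1, present in all endothelium, stood at 14.6, 40.7 and 41.9 CPM in MMTVRANK and 47.2, 26.5 and 49.0 CPM in WT basal libraries, so that it was low in 1 of those 2 libraries and not in the other. In luminal libraries Pecam1 lay between 2.98 and 10.3 CPM. Madcam1 had at most 3 counts in any basal library. Over the list of 10 endothelial and high endothelial venule markers the summed level was 111, 232 and 254 CPM in MMTVRANK and 266, 166 and 270.2 CPM in WT basal libraries. It was thus low in MMTVRANK replicate 1 and high in WT replicate 1, both of which held no Glycam1. Chst4, Fut7 and Pecam1 were chosen after their values were seen, and their part in the Glycam1 values was not tested.

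**Figure D5:**
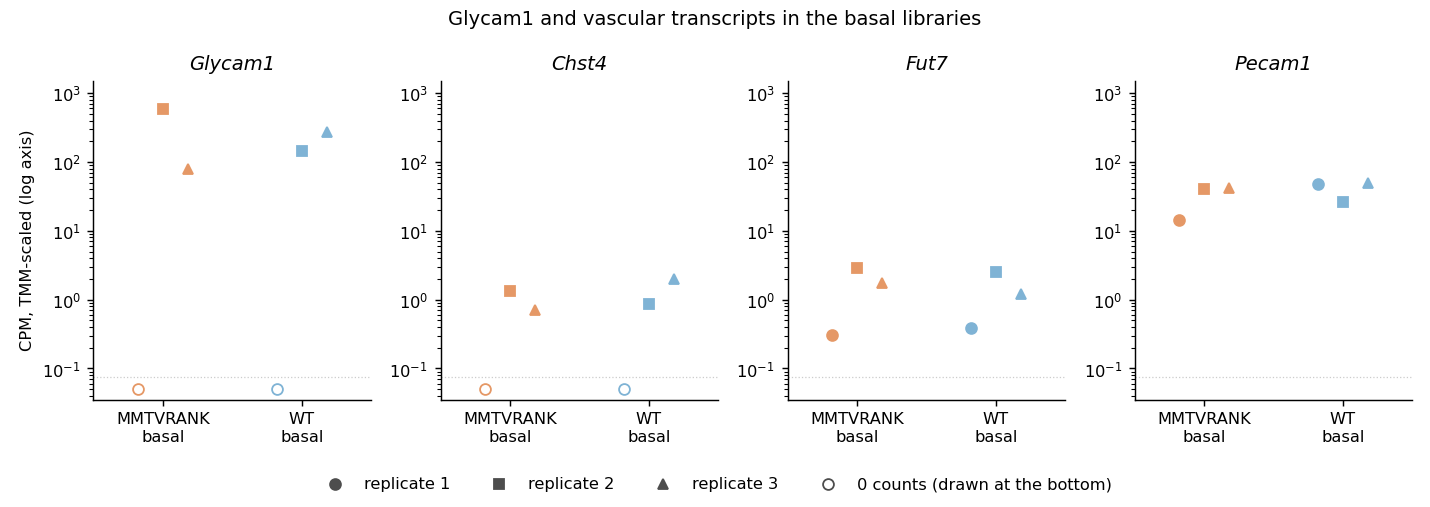
Levels in the 6 basal libraries, in CPM on a log axis, are drawn for Glycam1, for Chst4 and Fut7 of high endothelial venules, and for Pecam1 of all endothelium, with libraries at 0 counts open at the bottom. Replicate 1 of both genotypes lies at 0 for Glycam1 and Chst4 and lowest for Fut7, whereas Pecam1 in WT replicate 1 lies at 47.2 CPM.

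Genes outside the 10 members were ranked by how their log2 CPM followed the mean of the 4 tested caseins over the 6 luminal libraries. Predicted and clone-named symbols and genes at a mean log2 CPM under 2 were left out. The closest were Fbf1, Csnk1d, Smg6, Trim68 and Cyb561d1. Their Pearson correlations were 0.987, 0.986, 0.985, 0.978 and 0.976 in that order. The 6 points share 2 genotypes and their libraries, and the correlations were picked as the highest, so they carry no test. None of the 5 genes changed between MMTVRANK and WT luminal cells, and their log2 fold changes lay between −0.55 and −0.11.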

How the data were processed

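Libraries were prepared from the RNA of sorted cells with a stranded SMARTer Pico total RNA kit, as the labels' protocols say. The submitters' processing notes name STAR 2.6.1b and GRCm38.p6. Raw read counts per gene symbol were deposited, made by the authors with featureCounts 1.5.2 on GENCODE M17 and no strand option, per the file headers. Groups followed the titles.

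Genes were kept by filterByExpr with a count minimum of 10 (18236 of 53735 symbols; 15946 had no count). Counts were scaled by TMM and fitted by edgeR 4.0.16 (R 4.3.3, quasi-likelihood, robust) over all 12 libraries and 4 groups, with a Benjamini-Hochberg threshold of 0.05 over all genes; the common biological coefficient of variation was 0.450. Each SE was had by dividing the log2 fold change by the root of its F. Alternatives used DESeq2 1.42.0, limma 3.58.1, other scalings and filters, fewer groups, a replicate block and libraries left out. The scripts were tested on simulated data. All 66 pairs of libraries differed beyond sampling noise (lowest chi-square over its degrees of freedom 25.5). Depth was 12459547 to 15069578 counts per library, and the SE carries the spread between libraries as well as counting error.

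Whether replicate numbers pair libraries was checked on the correlation of deviations from group means over 9330 genes. For numbers 1, 2 and 3 it was 0.560, 0.115 and 0.418 between the luminal groups and 0.258, 0.151 and 0.114 between MMTVRANK luminal and basal. Between WT luminal and basal it was 0.291, 0.168 and 0.380. All of these were over 0.1, and no label explains the numbers. Libraries of unlike number were not compared, so these values cannot show whether the numbers mark pairs. The main fit did not use the number, and the replicate block among the alternatives did. Between the basal groups it was 0.405, −0.05 and 0.160.

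The members and gene lists were chosen with earlier results of these data known. All members were named whatever their values, with Tnfrsf11a as the check of the labels; of each of 7 related lists at most 4 tested genes with the smallest p in the luminal comparison were named, and in the lactogenic list also Prlr, Stat5a, Stat5b, Elf5 and Gata3. Genes alike in pattern were the 5 with the highest Pearson correlation, at a mean log2 CPM of at least 2, with predicted and clone-named symbols left out. A test of the summed level had been planned and is not reported. Marker genes named singly were picked after their values were seen.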

Additional observations from a re-analysis of the deposited data

How the results depend on the processing

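In luminal cells, of 8 tested genes 4 fell; 6 passed with no filter on low counts, which added Csn1s2a and Glycam1, 1 passed when only the 2 luminal groups were fitted, 1 without both MMTVRANK libraries numbered 3 and 2 without both basal libraries numbered 1 (both sets chosen after seeing the data), and 1 to 4 with each library left out. The counts of all genes called were 46, 800 by DESeq2, 29 by limma-voom, 1353 with no filter, 103 with the replicate block, 7 with the 2 groups alone and 3 to 93 over libraries left out; in basal cells and for the difference 1 gene was called, against 56 and 130 by DESeq2 and 349 and 776 with no filter. Lalba passed in all 24 alternatives, Spp1 in 17, Csn3 in 16 and Btn1a1 in 14. In basal cells the count was 0, but 1 by DESeq2 and 2 with no filter, and 0 to 0 over libraries left out. For the difference of effects it was 0, but 2 by DESeq2, 3 with no filter and 0 to 1 over libraries left out. Luminal over basal it was 6 in MMTVRANK, 3 by limma-voom, 8 with no filter and 4 to 6 over libraries left out. In WT it was 7, 8 with no filter and without both basal libraries numbered 1, where Glycam1 passed, and 7 to 7 over libraries left out. The other lists were also fitted, by a choice made after seeing the data, without the libraries in doubt. With the replicate block 4 genes passed in luminal cells, 0 in basal cells, 5 luminal over basal in MMTVRANK, where Glycam1 was lost, 7 in WT and 0 for the difference; the block changed no other call. The summed ratio of 0.171 lay between 0.138 and 0.225 over libraries left out, and was 0.171 as the geometric mean within replicate numbers. The sign of Csn2 in luminal cells turned by limma-voom (0.030), with the replicate block (0.082), without both WT libraries numbered 2 (0.23) and without both MMTVRANK libraries numbered 3 (0.17), and ran between −0.52 and 0.23 over libraries left out. In basal cells Csn2 (0.045) and Glycam1 (−0.082) turned by limma-voom, and Csn1s1 (0.92) and Csn1s2a (3.31) without both WT libraries numbered 2; over libraries left out Csn2 ran between −1.31 and 0.042, Glycam1 between −1.79 and 1.63, Csn1s1 between −1.34 and 0.92 and Csn1s2a between −5.83 and 3.31. The difference for Btn1a1 turned without both WT libraries numbered 2 (0.066) and ran between −0.99 and 0.42. None of these passed, and the cause was not tested. Depth limits Wap, Csn1s2b and basal Lalba, which rest on few counts.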

Other observations

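Relatives of the members gave few calls. Wap belongs to the four-disulphide core family, of which 7 of 21 listed genes were tested in luminal cells and none changed between MMTVRANK and WT. Wfdc18, another whey acidic protein relative, was abundant at 164, 477 and 442 CPM in MMTVRANK and 30.0, 289 and 215 CPM in WT luminal libraries (log2 fold change 1.02, adjusted p = 0.639). Wfdc2 averaged 314 ± 148 CPM in MMTVRANK and 508 ± 191 CPM in WT luminal cells (adjusted p = 0.707). Of 13 listed butyrophilin genes 3 were tested, and Btn1a1 alone fell. Btn2a2 stood at 0.817, 0.575 and 0.703 CPM in MMTVRANK and 1.57, 1.63 and 8.13 CPM in WT luminal libraries (log2 fold change −2.42, adjusted p = 0.544).

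Spp1 and Pkd2 are neighbours, and 3 of 19 genes of the list of secretory calcium-binding phosphoproteins and their neighbours were tested. Pkd2 averaged 14.1 ± 6.95 CPM in MMTVRANK and 14.0 ± 3.69 CPM in WT luminal cells, and Abcg2, which carries riboflavin into milk, 8.49 ± 2.63 CPM in MMTVRANK and 7.33 ± 2.21 CPM in WT. Neither changed, with log2 fold changes of 0.0059 and 0.21. Groups of 3 libraries are too small for a formal search for single outlying libraries, and none was made. Both WT replicate 2 and both MMTVRANK replicate 3 libraries were left out for their labels or macrophage transcripts. Each library was also left out in turn.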
